A study of Mus musculus with 12 samples.

Results

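The clustered protocadherins are cell surface adhesion proteins made from 3 neighbouring gene clusters, alpha, beta and gamma. The members described here were the entries of the sperm and testis count tables whose symbol starts with Pcdha, Pcdhb or Pcdhg. These were 58 of 51826 entries of the sperm table and 57 of 23502 entries of the testis table. The rule used names alone, but the family was taken up with the sperm value of its member Pcdhgc4 already known. Differences of the members in sperm are therefore a description, with no p-value printed, and a call there only counts members past the thresholds. RNA-seq was carried out on 12 libraries. Mature sperm came from the cauda epididymis of P56 mice, either WT (n = 3) or Xap5l KO (n = 3), the latter from a line made with CRISPR-Cas9 and lacking Xap5l in all cells. Whole testes came from P16 mice, either WT (n = 3), which are floxed Xap5 males in the study's description of its controls, or Xap5 cKO (n = 3), in which the floxed Xap5 was deleted in germ cells by a Stra8-GFPCre knock-in. The mice were of C57BL/6J background, and the somatic cells of the cKO testis keep Xap5. Nothing in the labels says whether the replicates of a group came from separate animals, so p-values measure only the spread between these libraries.

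In each cluster, tandem first exons encode the extracellular cadherin repeats and the membrane span of single members. In the alpha and gamma clusters, each first exon has its own promoter and is spliced to constant exons, which encode a shared cytoplasmic tail, while beta members consist of their own exon. Single neurons use different combinations of members, chosen by CTCF and cohesin binding at the promoters and by DNA methylation, and the combination serves the recognition of self. The C-type members at the 3′ end of the alpha and gamma clusters (Pcdhac1, Pcdhac2, Pcdhgc3, Pcdhgc4 and Pcdhgc5) are used more uniformly between neurons than the others.

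All 3 clusters lie on the plus strand of chromosome 18 in GRCm38, and their layout limits what a count per gene can show. In the GENCODE annotation the alpha cluster runs from 36930184 to 37187661, the beta cluster from 37264938 to 37524479 and the gamma cluster from 37661793 to 37841873. Each of the 14 annotated alpha members shares between 2860 and 5274 exonic bases with other genes. Each of the 22 gamma members shares between 2116 and 3157 bases with the 21 others, beside a private part with a median of 2630 bases. Of the 22 beta members, 20 share no exonic base with another gene on their strand, and Pcdhb21 and Pcdhb22 overlap by 455 bases. How a read pair from a shared exon was assigned to a member, and whether strand was used, are not given in the sources used here. A single alpha or gamma value can thus hold reads of another member and is uncertain, which is why sums over a cluster are given beside the members. The testis table has no Pcdhgb8, and the sperm table lists Pcdha11 in 2 entries, which were kept apart, and has no Pcdha10.

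The libraries held between 38881197 and 52308452 counts in sperm and between 32251198 and 36759054 in testes. The counts of Xap5l, listed as Fam50b, were 574, 440 and 419 in WT against 18, 23 and 8 in Xap5l KO sperm. Xap5, listed as Fam50a, had 819, 811 and 988 counts in WT against 673, 616 and 651 in Xap5 cKO testes, which also hold the undeleted somatic cells. The gene that was not targeted differed too. Xap5l had 532, 539 and 197 counts in WT against 6, 0 and 7 in Xap5 cKO testes. In Xap5l KO sperm the log2 fold change of Xap5 was -0.76. WT replicate 3 of the testes stood apart, with 223 counts of the spermatocyte gene Adam3 beside 1697 and 1369 in the other WT libraries. Sperm were recognizable by their markers, since Akap4, a protein of the flagellar sheath, had between 33217 and 128905 counts. The sperm samples also held leukocyte RNA, with a summed level of 6 leukocyte markers between 646 and 701 counts scaled to library size (CPM) in WT and between 118 and 416 in Xap5l KO.

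The family was read thinly in sperm and at a higher level in testes. The members together took 1256, 1214 and 1341 counts in WT sperm, which is 31.2, 31.2 and 32.1 CPM of the unscaled library total. In Xap5l KO sperm they took 1810, 2834 and 2000 counts, or 41.7, 57.4 and 38.2 CPM. In testes they took 104, 112 and 126 CPM in WT against 212, 194 and 203 in Xap5 cKO. The mutant libraries lay above the WT libraries in testes, and in sperm on these unscaled totals alone. After TMM scaling the sperm sums overlapped, with up to 38.1 CPM in WT and down to 34.3 CPM in Xap5l KO. At least 1 count was found for 58 of the 58 sperm entries and for 53 of the 57 testis entries, and Pcdha3, Pcdha5, Pcdha8 and Pcdha11 were at 0 in the 6 testis libraries. The filter on low counts was passed by 36 members in sperm and by 39 in testes.

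**Figure D1:**
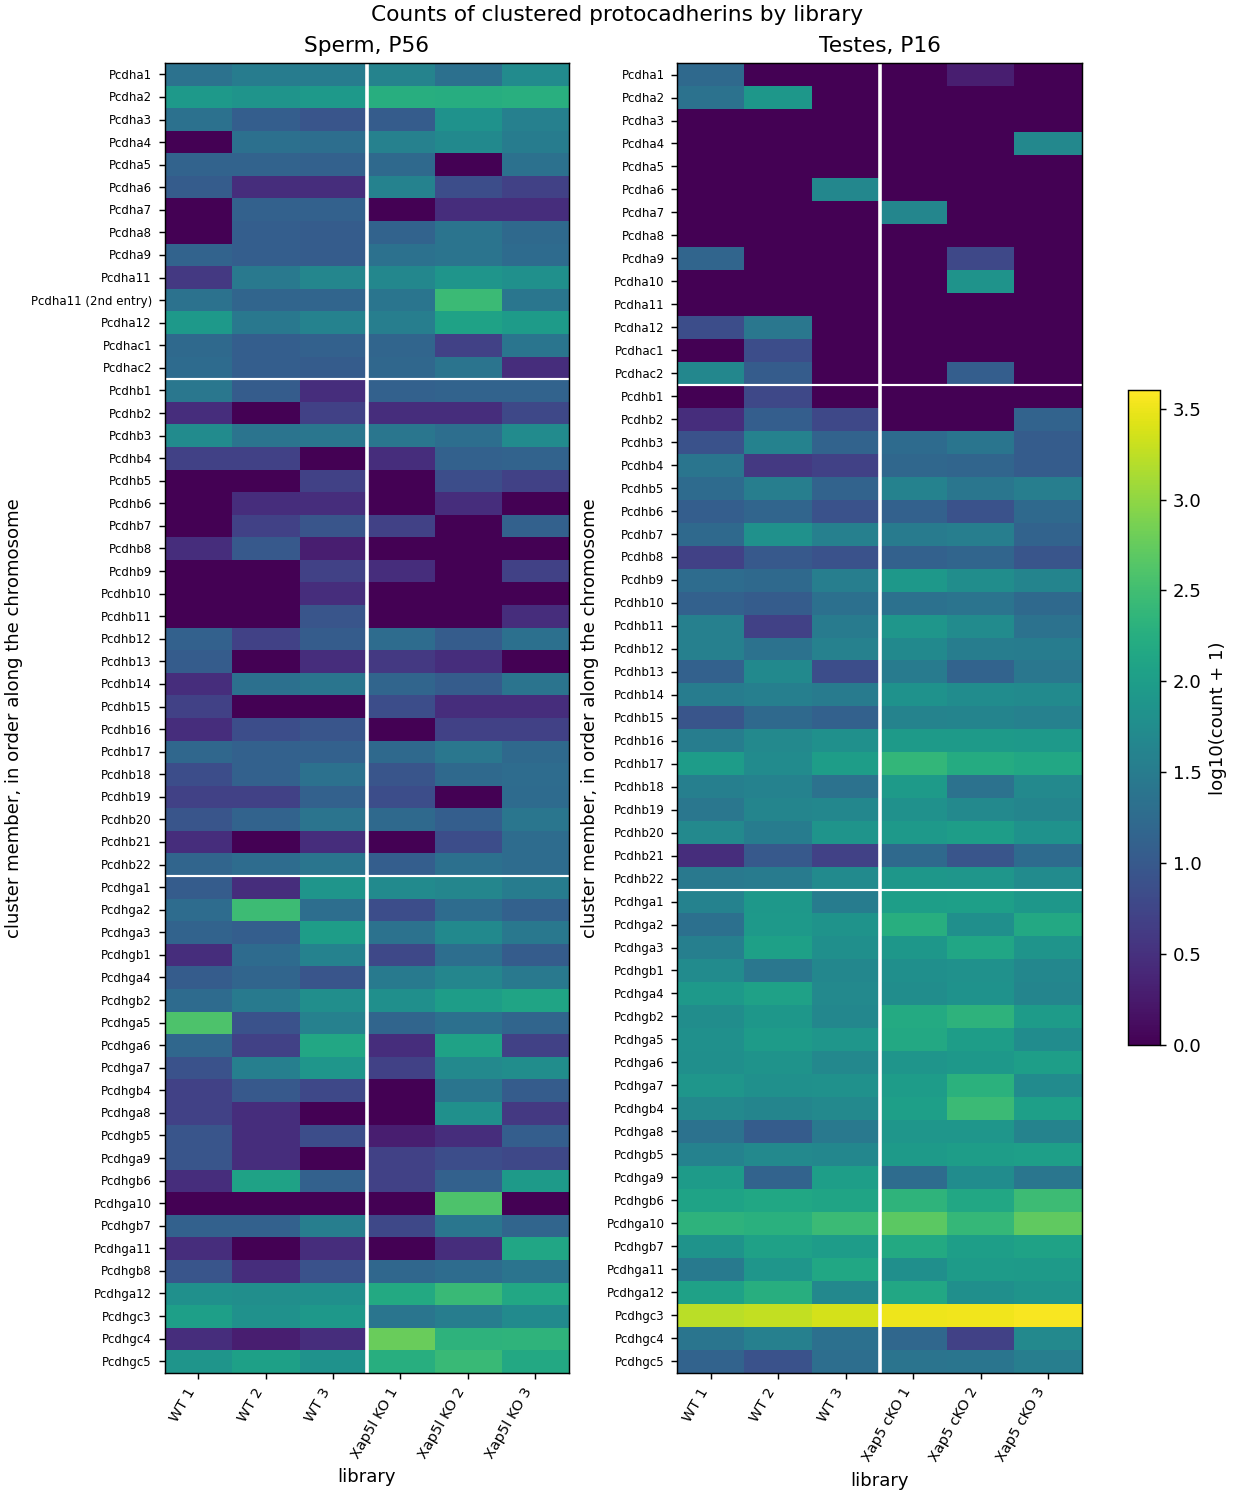
Counts of each member (rows, in order along the chromosome, white lines between the alpha, beta and gamma clusters) in the 6 libraries of each tissue (columns), coloured by log10(count + 1). In testes Pcdhgc3 is the brightest row in the 6 libraries and the alpha rows are nearly empty, while in sperm Pcdhgc4 is dark in WT and bright in Xap5l KO and several gamma A rows are bright in a single library.

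In Xap5l KO sperm the summed alpha level was higher than in WT, the beta difference was within the spread between libraries, and the gamma sums overlapped after TMM scaling. The alpha members took 306, 275 and 309 counts in WT against 489, 873 and 575 in Xap5l KO libraries. Scaled by TMM the sums were 7.496 ± 1.55 CPM for WT and 13.2 ± 3.0 CPM for Xap5l KO (SD, n = 3), a log2 difference of the sums of 0.81 with a pooled SD of 0.32, and the groups did not overlap. Beta members took 167, 141 and 198 counts in WT against 145, 161 and 268 in Xap5l KO, a log2 difference of -0.13 with a pooled SD of 0.32. Gamma members took 783, 798 and 834 counts in WT against 1176, 1800 and 1157 in Xap5l KO, a log2 difference of 0.47 with a pooled SD of 0.34. After TMM scaling the gamma sums overlapped between genotypes, and without Pcdhgc4 their log2 difference was -0.025. Pcdhgc4 was the member whose value was known beforehand, so leaving it out lowers the difference by construction. The remaining sum holds members high in a single WT library, such as Pcdhga5 and Pcdhga2, beside members higher in Xap5l KO, such as Pcdhga12, Pcdhgb2 and Pcdhgc5.

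**Figure D2:**
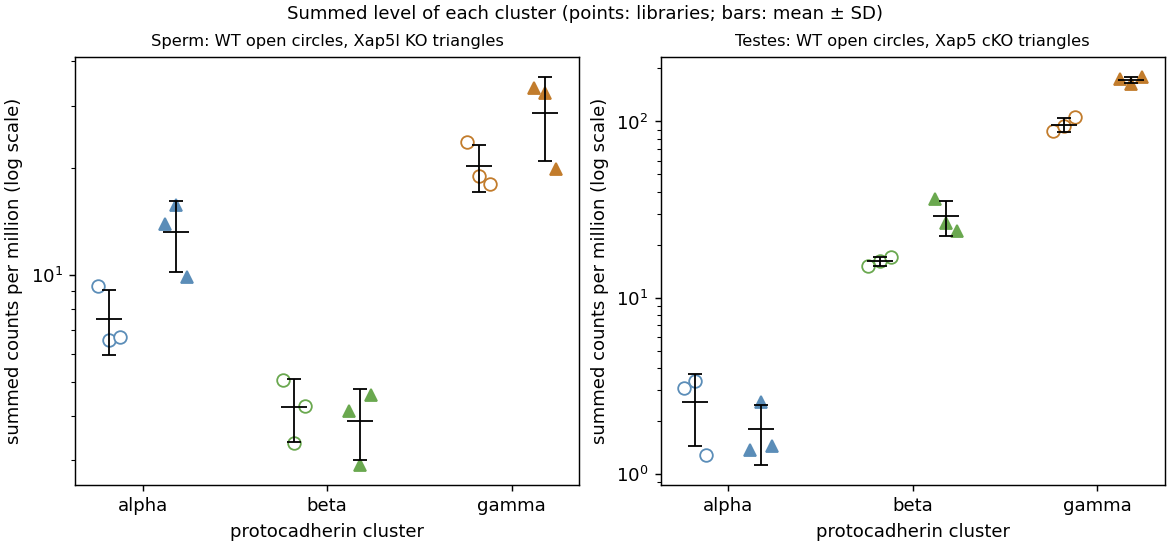
Summed level of the alpha, beta and gamma clusters in CPM (log scale) for sperm (left) and testes (right), with 1 point per library, WT as open circles, mutants as triangles and bars for the mean ± SD of 3 libraries. In testes the beta and gamma sums of the Xap5 cKO libraries lie above the WT libraries, and in sperm this holds for the alpha sums.

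Within the sperm table edgeR called 2 members upregulated and 1 downregulated (adjusted p under 0.05 and a fold change above 2), among 7.59% of 20945 tested genes called up and 1.27% called down. The 3 were gamma members, Pcdhga12 and Pcdhgc4 upward and Pcdhgc3 downward. The call of Pcdhgc4 is no independent evidence, since its value was known when the family was chosen and its WT libraries lay below the filter. Without WT replicate 2 or WT replicate 3 none of them was called, and edgeR then called 1 gene up and 1 down in the whole table. Without Xap5l KO replicate 1 or 2 Pcdhgc4 alone was called, without WT replicate 1 Pcdhgc3 was not, and without Xap5l KO replicate 3 the number called up was 6. Of the 36 tested members, 9 passed the filter only through the Xap5l KO libraries, Pcdhgc4 among them, and 5 only through the WT libraries. In 9 of the 36 each Xap5l KO library was above each WT library, against 19.2% of tested genes, and in 3 members each was below, against 19.2%.

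The 3 gamma C members differed from each other in sperm. Pcdhgc4, which codes for a C-type gamma protein, had 2, 1 and 2 counts in WT libraries against 597, 213 and 215 in Xap5l KO libraries. The WT libraries were nearly empty of it, and Xap5l KO replicate 1 stood above the other mutant libraries. Over the pooled counts the ratio of CPM was 167, and without Xap5l KO replicate 1 it was 91.4. Both ratios describe the value known when the family was taken up, and neither measures the spread between libraries. Pcdhgc3 went the other way, with 107, 66 and 82 counts in WT against 24, 33 and 52 in Xap5l KO libraries, or 2.19 ± 0.92 and 0.72 ± 0.15 CPM (SD, n = 3). The log2 fold change came to -1.59 (standard error, SE, 0.379). The groups did not overlap. For Pcdhgc5 the counts were 74, 111 and 68 in WT against 181, 275 and 148 in Xap5l KO (log2 fold change 0.99, SE 0.349). Its highest WT level, 2.64 CPM, was above its lowest Xap5l KO level, 2.54 CPM. The 3 genes share constant exons and differ in their first exon.

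Pcdhga12, the last of the gamma A members along the chromosome, had 64, 59 and 62 counts in WT sperm against 151, 272 and 143 in Xap5l KO sperm (log2 fold change 1.32, SE 0.332). The groups did not overlap and the WT counts were close to each other. Pcdhgb2, a gamma B member, had 17, 29 and 59 counts in WT against 61, 101 and 126 in Xap5l KO sperm (log2 fold change 1.19, SE 0.380), and its groups were separate after scaling. Among alpha members Pcdha2 was the most abundant, with 84, 73 and 87 counts in WT against 182, 174 and 184 in Xap5l KO libraries (log2 fold change 0.90, SE 0.306). Its Xap5l KO libraries lay above the WT libraries, and without it the alpha sum still differed by 0.75 on the log2 scale. Pcdha12 had 85, 27 and 38 counts in WT against 34, 117 and 94 in Xap5l KO and overlapped widely. The alpha C members were low in both genotypes, with 16, 11 and 12 against 14, 4 and 24 counts for Pcdhac1 and 17, 11 and 10 against 15, 23 and 2 for Pcdhac2. Both C members of the alpha cluster had log2 fold changes of -0.19.

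**Figure D3:**
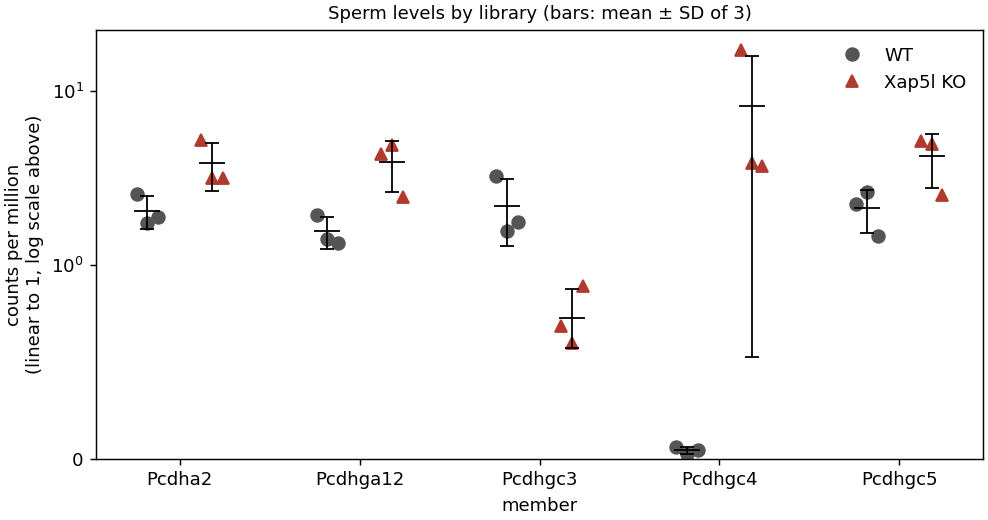
Level of 5 members in sperm in CPM (linear up to 1 and log scale above), with 1 point per library, WT in grey and Xap5l KO in red, and bars for the mean ± SD of 3 libraries. Pcdhgc4 is near 0 in the WT libraries and at 3.69 CPM or more in the Xap5l KO libraries, while Pcdhgc3 is lower in Xap5l KO.

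Several gamma members reached high counts in 1 sperm library and not in the others of its genotype. Pcdhga5 had 396, 7 and 37 counts in WT against 14, 20 and 14 in Xap5l KO sperm, and its log2 fold change of -3.69 (SE 1.22) rested on WT replicate 1, without which it was -0.56. Pcdhga10 had 395 counts in Xap5l KO replicate 2 and 0 in the other 5 libraries. Pcdhga2, named here after its values were seen, had 296 counts in WT replicate 2 and between 6 and 19 in the others. The gamma member with most counts was Pcdhga5 in WT replicate 1, Pcdhga2 in WT replicate 2, Pcdhga6 in WT replicate 3, Pcdhga10 in Xap5l KO replicate 2 and Pcdhgc4 in the other Xap5l KO libraries. It held between 17.3% and 50.8% of the gamma counts of its library.

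This unevenness was compared with that of other genes as a description. For each member and genotype with at least 30 counts over its 3 libraries, the share held by the highest library was taken. All entries were taken for comparison at totals from 30 to 1025 counts in sperm and from 30 to 1268 in testes. In sperm this share was above 70% in 12 of 34 gamma cases and 2 of 24 alpha cases, against 1.48% of 23387 cases over all entries of that range. For the beta cluster, whose members do not share constant exons, it was 0 of 15 cases. In testes it was above 70% in 7 of 7 alpha cases, 2 of 38 beta cases and 1 of 42 gamma cases, against 1.62% over all entries. The testis gamma cases include Pcdhgc3, whose totals lie above that range. The testis alpha members were thinly read and were not matched to entries with totals as low.

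In Xap5 cKO testes the beta and gamma clusters were higher than in WT, and the alpha cluster was hardly read. Beta members took 505, 584 and 615 counts in WT against 1164, 905 and 788 in Xap5 cKO libraries, which is 16.05 ± 1.03 and 28.9 ± 6.5 CPM (SD, n = 3), a log2 difference of the sums of 0.83 with a pooled SD of 0.23. Gamma members took 2947, 3423 and 3795 counts in WT against 5625, 5573 and 5871 in Xap5 cKO, which is 95.7 ± 9.0 and 172 ± 8 CPM (SD, n = 3), a log2 difference of 0.85 with a pooled SD of 0.11. Neither the beta nor the gamma sums overlapped between genotypes. Leaving out WT replicate 3, the differences were 0.87 for beta and 0.92 for gamma. In bulk testes, fewer cells of a type and less RNA per cell cannot be told apart.

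In edgeR's quasi-likelihood test 9 of the 39 tested members were upregulated in Xap5 cKO testes, where 4.15% of 16821 tested genes were called up. They were the beta members Pcdhb9, Pcdhb15, Pcdhb16, Pcdhb17 and Pcdhb22 and the gamma members Pcdhga8, Pcdhgb2, Pcdhgb4 and Pcdhgb5. None of the 39 was called down, while 10.9% of tested genes were. At an unadjusted p under 0.05 the number lower in Xap5 cKO was also 0, whereas DESeq2 called 2 thinly read alpha members down, Pcdha6 (46 counts in WT replicate 3 and 0 elsewhere) and Pcdha12. DESeq2 also called 2 as thinly read up, Pcdha4 (47 counts in Xap5 cKO replicate 3 and 0 elsewhere) and Pcdha7 (44 in replicate 1 and 0 elsewhere). The quasi-likelihood test without a filter called Pcdha2 down. By adjusted p alone 12 members were higher, against 25% of tested genes, and 0 were lower, against 28.1%. Of the 39, 8 passed the filter only through the Xap5 cKO libraries, and 2 of these, Pcdhb15 and Pcdhga8, were among the 9 called.

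Over the tested members the median log2 fold change was 0.83, beside -0.01 over all tested genes, and 33 of 39 were above 0. In 16 members each Xap5 cKO library was above each WT library, against 29.9% of tested genes, and in 0 was each below, against 32.4%. The tested members include 8 that passed the filter only through the Xap5 cKO libraries and 1 that did so only through the WT libraries. The median and these counts can thus be tilted upward by the filter. Leaving out Xap5 cKO replicate 1 reduced the 9 calls to 4, Pcdhb15, Pcdhgb2, Pcdhgb4 and Pcdhgb5, and leaving out WT replicate 3 raised them to 12.

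**Figure D4:**
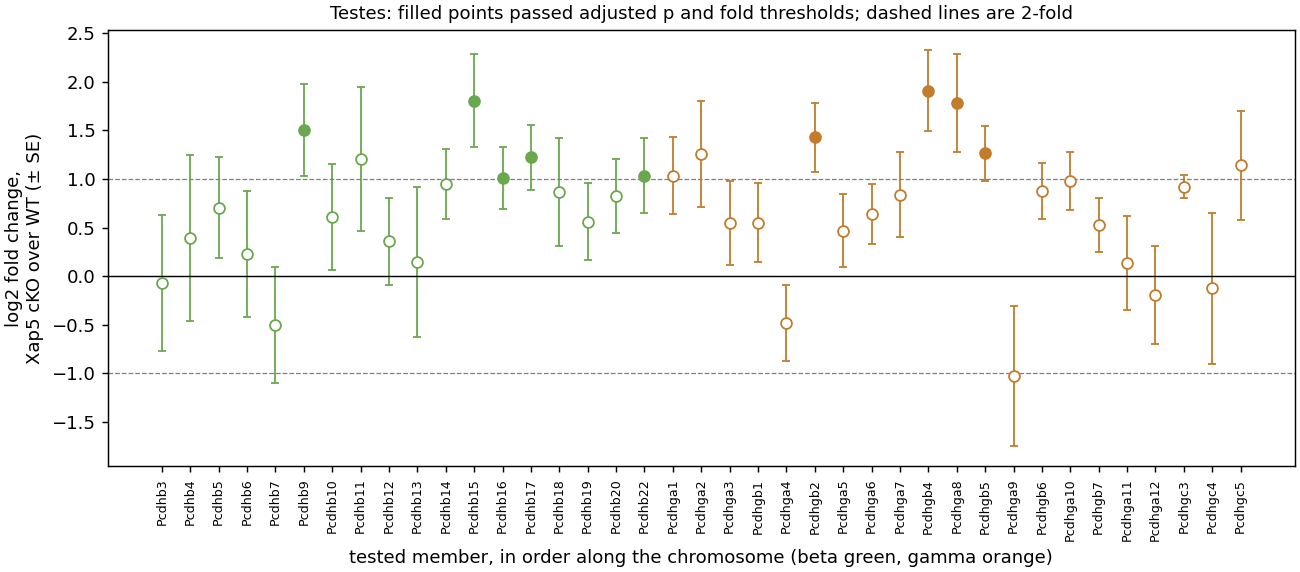
Log2 fold change of Xap5 cKO over WT testes for the 39 tested members in order along the chromosome, with standard errors, beta members in green and gamma members in orange, filled where called. Most points lie above 0 in both clusters, and Pcdhb7, Pcdhga4 and Pcdhga9 are the lowest.

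Among beta members Pcdhb17 had the most counts, with 97, 53 and 101 in WT against 240, 165 and 144 in Xap5 cKO libraries. It rose (log2 fold change 1.22, SE 0.338, adjusted p = 0.0136), and the groups did not overlap. Pcdhb15 had 8, 16 and 12 counts in WT against 40, 41 and 37 in Xap5 cKO (log2 fold change 1.81, SE 0.478). It entered the test only through the Xap5 cKO libraries, so its call was conditioned on its being high there. The 3 mutant libraries were close to each other and well above the WT libraries. Pcdhb16 (33, 48 and 63 against 92, 92 and 86 counts) and Pcdhb22 (28, 30 and 52 against 80, 76 and 54) lay just past the fold threshold, with log2 fold changes of 1.01 and 1.03. Pcdhb9 had 18, 16 and 34 counts in WT against 82, 57 and 41 in Xap5 cKO (log2 fold change 1.503, SE 0.473, adjusted p = 0.0242). Pcdhb7, named after its values were seen, was the lowest beta value at -0.50 (SE 0.594). The 18 tested beta members, some of which entered the test only through the Xap5 cKO libraries, ranged from there to 1.81, with a median of 0.77.

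Pcdhgc3 dominated the gamma cluster of the testis, holding between 53.6% and 63.4% of the gamma counts in the 6 libraries. It had 1665, 1836 and 2351 counts in WT against 3273, 3348 and 3721 in Xap5 cKO libraries. Per kilobase of exonic sequence its level was 10.02 ± 1.62 CPM in WT and 19.0 ± 1.4 CPM in Xap5 cKO (SD, n = 3), and the next member, Pcdhga10, was at 1.38 CPM per kilobase in WT. The groups did not overlap, and Pcdhgc3 was higher in Xap5 cKO (log2 fold change 0.92, SE 0.115, adjusted p = 0.000186), below the fold threshold. Pcdhgc3 thus had the highest level of the family in testes and the opposite sign of change from sperm, where its log2 fold change was -1.59. The tissues were counted in separate tables and differ in age and deleted gene, so the difference between them was not tested.

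The other C members were low in testes. Pcdhgc4 had 24, 36 and 20 counts in WT against 15, 4 and 49 in Xap5 cKO libraries (log2 fold change -0.13, SE 0.776, adjusted p = 0.904). Its groups overlapped. Pcdhgc5 had 13, 7 and 19 counts in WT against 23, 24 and 34 in Xap5 cKO, a log2 fold change of 1.14 that did not pass the test (SE 0.561, adjusted p = 0.117). Without Pcdhgc3 the gamma sum still differed by 0.74 on the log2 scale.

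The 6 gamma B members had log2 fold changes from 0.53 to 1.91, with 3 of them called and 4 higher by adjusted p alone. Pcdhgb5 had 39, 48 and 45 counts in WT against 90, 101 and 106 in Xap5 cKO libraries (log2 fold change 1.27, SE 0.283, adjusted p = 0.00472). Pcdhgb4 had 48, 43 and 48 counts in WT against 105, 285 and 105 in Xap5 cKO (log2 fold change 1.91, SE 0.416, adjusted p = 0.00413). Its Xap5 cKO replicate 2 was far above the others, the other 2 mutant libraries were also above WT, and without replicate 2 the log2 fold change was 1.305. Pcdhgb2 had 58, 79 and 45 counts in WT against 157, 210 and 93 in Xap5 cKO (log2 fold change 1.43, SE 0.357, adjusted p = 0.00830). Pcdhgb6 passed by adjusted p alone (log2 fold change 0.87, adjusted p = 0.0286), and Pcdhgb7 did not pass (0.53, adjusted p = 0.146).

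The gamma A members were mixed, with log2 fold changes from -1.03 for Pcdhga9 to 1.78 for Pcdhga8. Pcdhga8 had 22, 10 and 28 counts in WT against 78, 77 and 40 in Xap5 cKO libraries, and the groups did not overlap. It too entered the test only through the Xap5 cKO libraries. Pcdhga10, the most abundant A member, had 214, 192 and 284 counts in WT against 494, 252 and 522 in Xap5 cKO. It passed by adjusted p but not by fold (log2 fold change 0.98, adjusted p = 0.0210), and Xap5 cKO replicate 2 lay within the WT range. Pcdhga12, which was higher in Xap5l KO sperm, had 113, 180 and 47 counts in WT against 143, 61 and 72 in Xap5 cKO testes (log2 fold change -0.19, adjusted p = 0.774).

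Alpha members gave 103, 122 and 46 counts in WT against 44, 87 and 47 in Xap5 cKO testes, and none passed the filter on low counts. A different member led in each library. These were Pcdhac2 with 45 counts, Pcdha2 with 80 and Pcdha6 with 46 in WT replicates 1, 2 and 3, and Pcdha7 with 44, Pcdha10 with 70 and Pcdha4 with 47 in Xap5 cKO replicates 1, 2 and 3. In 3 libraries the leading member held 100% of the alpha counts. The log2 difference of the alpha sums was -0.47 with a pooled SD of 0.65, within the spread between libraries, and 0.16 without Pcdha2.

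Markers of Sertoli cells, Leydig cells and leukocytes were higher along with the beta and gamma sums in Xap5 cKO testes, and most germ cell markers were lower. Pachytene spermatocyte markers fell in Xap5 cKO in 5 of 5 genes, from a summed level between 817 and 1731 CPM in WT to between 122 and 185 CPM, and 4 of 5 leptotene and zygotene markers fell. Spermatogonia markers had summed levels from 596 to 705 CPM in WT and from 438 to 475 CPM in Xap5 cKO, with 1 of 6, Sall4, called down. By adjusted p alone 5 of the 6 were lower and 1, Gfra1, was higher (log2 fold change 0.56, adjusted p = 0.0321). Of 6 Sertoli cell markers 5 were higher by adjusted p and 1, Amh, was upregulated, with summed levels from 882 to 982 CPM in WT and from 1536 to 1594 in Xap5 cKO, a log2 difference of 0.74. In the Leydig list 2 of 5 markers were upregulated (177 to 302 CPM in WT, 312 to 659 in Xap5 cKO). In the leukocyte list 3 of 4 tested markers were (64.2 to 93.9 against 138 to 183 CPM), with S100a8 and S100a9 below the filter. The myoid sums had a log2 difference of 0.36, the endothelial 0.60 and the Schwann cell sums 0.24. Of 8 tested neuron and nerve markers 6 had positive log2 fold changes, with a median of 0.41, Nefm rose and Elavl4 fell. Their sum, of which Tubb3 made up 189 of 215 CPM in WT, differed by 0.05. The part of these cell types in the protocadherin result was not tested.

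**Figure D5:**
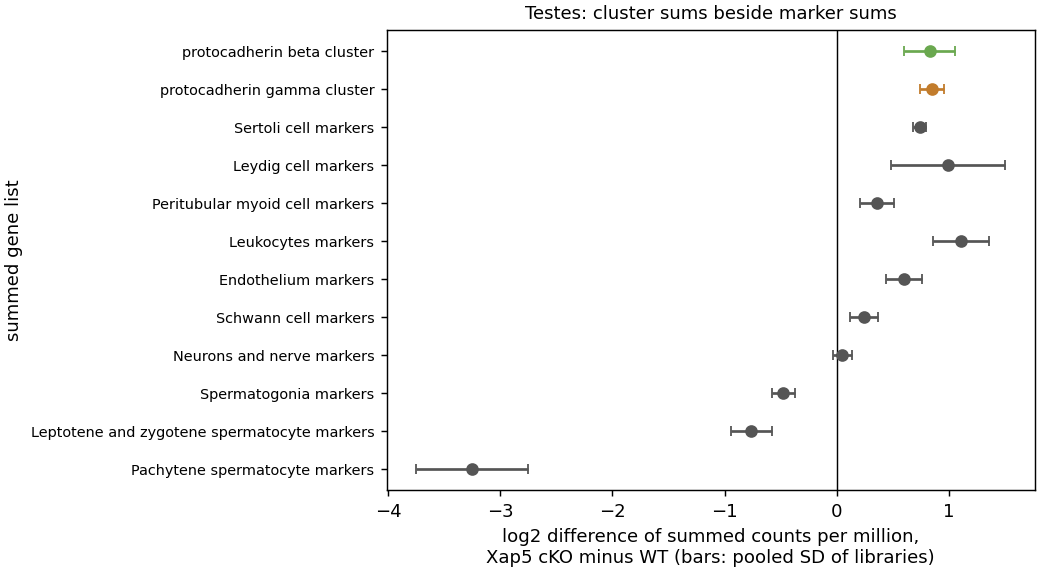
Log2 difference of the summed CPM between Xap5 cKO and WT testes for the beta and gamma clusters and for lists of cell type markers, with bars for the pooled SD of the libraries. The clusters lie at 0.83 and 0.85, beside Sertoli cell (0.74), Leydig cell (0.99, pooled SD 0.51) and leukocyte (1.11) sums. The endothelial (0.60), myoid (0.36), Schwann cell (0.24) and neuron and nerve (0.05) sums lie lower. Pachytene spermatocyte markers lie at -3.25.

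In sperm, 4 of 5 round spermatid markers and 3 of 5 pachytene markers were upregulated in Xap5l KO, beside 7.59% of all tested genes. The round spermatid list summed to 145 to 233 CPM in WT and 327 to 417 CPM in Xap5l KO. The pachytene marker Piwil1 went the other way (log2 fold change -0.97), and the 4 tested leptotene and zygotene markers were below 0. Of 8 sperm and elongating spermatid markers 1, Akap4, was called up (1.09). In that list 6 log2 fold changes were positive and 2 negative, Smcp (-0.97) and Odf1 (-0.69). Leukocyte sums, of which Lyz2 made up 566 of 680 CPM in WT, were lower by 1.48 on the log2 scale. Of the 6 leukocyte markers 5 had negative log2 fold changes, and S100a9, a granulocyte protein, was called down. S100a8 went the other way (0.48). Of the Sertoli list 5 of 5 tested markers had negative log2 fold changes, and Cldn11 was called down. The Leydig list had 4 of 4 tested markers below 0 and the endothelial list 2 of 3. Log2 differences of the sums were -0.67 (pooled SD 0.56) for Sertoli, -1.11 (0.56) for Leydig and -0.64 (0.23) for endothelial markers. The myoid (0.02) and Schwann cell (0.44) sums were not lower. Epididymal epithelium markers summed to 5163 to 7197 CPM in WT and 3878 to 5209 CPM in Xap5l KO, nearly all of it Crisp1, and the other 5 markers were near 0. Of 7 tested neuron and nerve markers 5 had negative log2 fold changes, with a median of -0.73, while Map2, the most abundant of them, stood at means of 28.3 CPM (WT) against 46.5 CPM (Xap5l KO). The part of these shifts in the alpha, Pcdhgc3 and Pcdhgc4 values was not tested.

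Genes that act on the clusters or with their products were counted from lists. Of 32 chromatin and cohesin genes, 4 were downregulated in Xap5 cKO testes, namely the meiotic cohesin subunits Smc1b (log2 fold change -1.40) and Stag3 (-1.47), the CTCF paralogue Ctcfl (-1.33) and the DNA methylation cofactor Uhrf1 (-1.40), beside 10.9% of all tested genes called down. By adjusted p alone 18 were lower and 6 higher, beside 28.1% and 25% of all tested genes. Ctcf itself had 3438, 3462 and 3519 counts in WT against 3445, 3254 and 3444 in Xap5 cKO (log2 fold change 0.06, adjusted p = 0.514). Smchd1, a repressor known to act on the clusters, and Setdb1, an H3K9 methyltransferase, were named after their values were seen. Smchd1 was lower by adjusted p (-0.83, adjusted p = 3.12e-05) without reaching the fold threshold, as was Setdb1 (-0.63, adjusted p = 3.89e-05). In the same list Ehmt1 (0.08), Ehmt2 (-0.02) and Wiz (-0.13) did not pass by adjusted p. Among the 6 higher genes were Tet2 (0.82) and Dnmt3a (0.32). The part of these genes in the protocadherin result was not tested. In sperm 5 of 30 tested genes of the list were upregulated, beside 7.59% of all tested genes, Rec8 (1.16), Smc1b (1.34), Stag3 (1.37), Uhrf1 (1.16) and Dnmt3l (1.66), and Ctcf had a log2 fold change of -0.37. Rec8 is, like Smc1b and Stag3, a meiotic cohesin subunit, and Dnmt3l acts in DNA methylation of germ cells.

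Of 25 genes listed for protocadherin signalling and processing, 1 was upregulated in Xap5 cKO testes, beside 4.15% of all tested genes. It was the focal adhesion kinase family member Ptk2b (1.17, adjusted p = 0.000471). By adjusted p alone 16 were higher and 2 lower, beside 25% and 28.1%. Of the non-clustered protocadherins, which lie elsewhere in the genome, Pcdh7 (1.02, adjusted p = 0.000865) and Pcdh8 (1.27, adjusted p = 0.0428) rose and Pcdh11x (-2.34, adjusted p = 0.0403) fell among 11 tested in testes. In sperm the 8 tested had log2 fold changes from -0.67 to 1.32. Among 23 genes near the clusters, Cd14 (1.196) and Spry4 (1.18) rose in Xap5 cKO testes, and the median of the list was 0.01.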

How the data were processed

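RNA-seq of 12 libraries in 4 groups of 3 was used, grouped by the sample labels. Poly(A) RNA was sequenced as read pairs. The authors mapped them to GRCm38 with HISAT2 2.1.0, assembled transcripts with StringTie and deposited raw counts per gene, 1 table per tissue. FastQC 0.11.2, Trimmomatic 0.36 and DESeq2 1.12.4 stand in the submitters' processing notes. The counting tool, strand setting and treatment of shared reads are not given in the sources used here.

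Each table was fitted whole with edgeR 4.0.16 in R 4.3.3 (filterByExpr, TMM, quasi-likelihood test, genotype as the only term, Benjamini-Hochberg adjustment over all tested genes). A call needs an adjusted p under 0.05 and a fold change above 2. CPM are scaled by TMM unless stated. Sums of a cluster hold all of its members, filtered ones included. edgeR's common biological coefficient of variation came to 0.287 (sperm) and 0.174 (testes). With 3 libraries per group, a single gene's exact permutation test cannot pass, so the fit across genes was used. Alternatives were RLE factors, library size alone, DESeq2 1.42.0, other filters, no fold threshold, a replicate block, leaving out each library and, for sums, leaving out the leading member. For the sums, library size alone and leaving out libraries were added after seeing the data.

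Members, gene lists and tests were chosen with earlier results of these data known. Members named were those called, the 8 with the highest mean count and the C-type members. Of other lists, called genes were named, and a few more regulators after their values were seen. Exon structure came from GENCODE vM21. The fit was tested on simulated data. Figures were drawn with matplotlib 3.10.9. No sequences were used.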

Additional observations from a re-analysis of the deposited data

How the results depend on the processing

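The counts of called members depended on the setting, more so in sperm. In sperm, upregulated members numbered 2, and 5 with DESeq2, 5 with no filter on low counts, 1 with at least 10 counts in every sample, 1 with the replicate block, and 0 to 6 when 1 library was left out. Downregulated members numbered 1, and 3 with library size alone, 3 with no filter, 0 with the replicate block, and 0 to 2 when 1 library was left out. Without WT replicate 2 or WT replicate 3 no sperm member was called, and then edgeR called 1 gene up and 1 down in the whole table, so that fit had fewer samples and hardly any calls anywhere. The log2 fold change of Pcdhgc4 without those libraries was 7.24 and 7.56. The sperm gamma sum moved from 0.47 to -0.025 without Pcdhgc4, the member whose value was known beforehand.

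In testes, upregulated members numbered 9 and 4 to 12 when 1 library was left out, 8 with the replicate block and 12 without the fold threshold. Downregulated members numbered 0, and 2 with DESeq2, 1 with no filter, and 0 to 1 when 1 library was left out. The testis gamma sum moved from 0.85 to 0.74 without Pcdhgc3. Leaving out 1 library gave sums of 0.65 to 0.95 for beta and 0.79 to 0.92 for gamma in testes, and of 0.67 to 1.004 for alpha and 0.34 to 0.72 for gamma in sperm. The near-zero sperm beta sum ranged from -0.29 to 0.07 and the testis alpha sum from -0.91 to -0.21. For settings where a call changed, the cause was not tested unless stated.

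Whether the shared replicate numbers pair the libraries is not settled, since correlations over 3 libraries per group cannot exclude it. Deviations of same-numbered libraries correlated at 0.17, -0.02 and -0.12 in sperm and at 0.01, -0.03 and -0.03 in testes. In sperm, WT replicate 3 correlated at 0.24 with Xap5l KO replicate 2, and WT replicate 2 at 0.16 with Xap5l KO replicate 3. Replicate 1 of WT and of Xap5l KO sperm had TMM factors of 0.82 and 0.81, beside 1.08 to 1.12 in the other sperm libraries. Whether sperm libraries match across genotypes in another order was not tested. Under the replicate block, Pcdhga12 (1.28) and Pcdhgc3 (-1.53) were no longer called in sperm, nor Pcdhb9 (1.51) and Pcdhb22 (1.06) in testes. Low counts limit single members, since most alpha and beta members of sperm had under 50 counts per library.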

Other observations

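Some entries that are not protocadherins lie inside or between the clusters and were looked at after their values were seen. Slc25a2, a mitochondrial ornithine carrier gene between the beta and gamma clusters, had 75, 68 and 115 counts in WT against 166, 432 and 345 in Xap5l KO sperm (log2 fold change 1.54, SE 0.286). Taf7, in the same gap, had a log2 fold change of -0.12. Among the 22 tested genes near the clusters, 19 had negative log2 fold changes in Xap5l KO sperm, with a median of -0.29. In that list Slc25a2 alone was called up, and Cd14 was called down (-1.33). The antisense RNA Gm29994, which lies on the minus strand of chromosome 18 from 37829008 to 37830200 in GRCm38, within the span of the gamma C members, had 20, 19 and 20 counts in WT against 69, 75 and 51 in Xap5l KO sperm. Its log2 fold change was 1.49 (SE 0.405), and its groups did not overlap. No exon of a gamma member overlaps it in the annotation, but it lies within introns of gamma members. Whether strand was used in counting is not given, so its counts can hold unspliced reads of gamma members. A change of the antisense RNA itself was not tested apart from them.

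Small counts were more often even for the beta members than for other genes of the sperm table. Among counts from 1 to 20, 73 of 86 beta values (84.9%) were even, against 54.7% over all entries, and in testes 29 of 49 (59.2%) were even, against 56.1%. The cause was not tested.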
